A study of Mus musculus with 8 samples.

Results

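The 51 genes described here encode proteins that store maternal mRNA in the oocyte, bind its poly(A) tail, shorten that tail, or remove the cap and degrade the transcript. They were taken by gene symbol from the table of raw counts of 8 mouse oocyte RNA-seq libraries, by a rule that uses no measured value. The list of symbols itself was drawn up with earlier results of these data known. All 51 were found among the 35976 symbols of the table. Of these, 50 passed the filter on low counts and were tested. Zfp36l1, an mRNA-binding protein that recruits deadenylases, had 0 to 5 counts per library and was not tested.

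Full-grown oocytes, at the germinal vesicle stage and the end of their growth in the ovary, were compared between mutant and control mice of 2 lines. The first line compared oocytes labelled as a double knockout of H2A.Z.1 and H2A.Z.2, both forms of the histone variant H2A.Z, with a wild type control, termed the H2A.Z control. The second compared a knockout of Mll2 with its own wild type, Mll2 being a histone H3 lysine 4 methyltransferase encoded by Kmt2b. Each of the 4 groups had 2 libraries, each made from about 20 pooled oocytes freed of the zona pellucida. The promoter driving deletion, the age of the females, their strain and whether libraries of a group came from separate animals are not stated in the sources used here. The p-values below therefore measure only the spread between these libraries, which may be technical. That spread was estimated per gene over all 4 groups together, though it was unequal between them. Between the 2 libraries of a group, chi-square per degree of freedom was 4.67 in the H2A.Z control and 6.24 in the libraries labelled as the double knockout. It was 12.2 in the Mll2 wild type and 36.8 in the Mll2 knockout.

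Library totals ranged from 20309233 to 30087863 counts. Kmt2b fell from 41.9 and 42.4 CPM, or counts scaled to a common library total, in the 2 Mll2 WT libraries to 8.73 and 9.28 in the Mll2 KO libraries (log2 fold change -2.23 ± 0.15, adjusted p = 2.72e-08). The H2A.Z genes went against their label. H2afz, encoding H2A.Z.1, was at 23.9 and 29.97 CPM in the H2A.Z control and at 322 and 317 CPM in the DKO-labelled libraries, and H2afv, encoding H2A.Z.2, rose from 107.9 and 107.2 to 285 and 294 CPM. The log2 fold changes were 3.56 ± 0.14 (adjusted p = 6.63e-10) for H2afz and 1.43 ± 0.10 (adjusted p = 1.73e-07) for H2afv. H2afz also rose in Mll2 KO, from 7.04 and 7.09 to 19.4 and 15.0 CPM (log2 fold change 1.28 ± 0.15, adjusted p = 1.21e-05). H2afv did not pass there (adjusted p = 0.165). Kmt2b was higher in the DKO-labelled libraries (log2 fold change 0.49 ± 0.15, adjusted p = 0.018). Gene-level counts do not show whether a deleted exon is among the reads. The DKO-labelled group is therefore named by its label, and every direction given for it rests on that label. Of 15 oocyte markers, 14 or 15 had counts in both libraries of each group, with sums of 17332 to 23623 CPM. Markers of granulosa and cumulus cells, the somatic companions of the oocyte, summed to 104.1 and 110.3 CPM in the H2A.Z control, 150.7 and 151.5 in the DKO-labelled libraries, 99.5 and 101.6 in Mll2 WT and 110.7 and 111.3 in Mll2 KO. Of these 20 markers, Amh, Amhr2, Ptx3 and Slc38a3 were at 0 in both DKO-labelled libraries, Amh, Foxl2, Ptx3 and Wt1 in both Mll2 WT libraries, and Amh, Ptx3 and Wt1 in both Mll2 KO libraries. Markers of theca and stroma summed to 3.44 to 7.32 CPM over the 8 libraries, and those of blood, immune and endothelial cells to 30.5 to 55.4 CPM. The part of somatic RNA in the member differences was not tested.

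A growing oocyte accumulates mRNA with short poly(A) tails and holds it in ribonucleoprotein particles, since transcription stops before ovulation and later steps run on stored messages. When meiosis resumes, cytoplasmic polyadenylation activates some of these messages, while the CCR4-NOT complex, brought to others by adaptors such as BTG4, removes their tails and prepares them for decapping and decay. In bulk samples, fewer cells of a type and less RNA per cell cannot be told apart. The cDNA was made from polyadenylated RNA, so a change in tail length was not measured apart from a change in mRNA amount.

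Btg4, the oocyte adaptor of CCR4-NOT, had the highest level per kilobase of transcript among the 51 genes in each of the 4 groups. On the scale of CPM per kilobase of the longest coding GENCODE transcript, Btg4 was at 2924 in the H2A.Z control, 2673 in the DKO-labelled libraries, 2287 in Mll2 WT and 1356 in Mll2 KO. Zar1l, a paralog of the maternal effect gene Zar1, was next in every group, from 669 CPM per kilobase in Mll2 KO to 899 in the H2A.Z control. Zar1, Dazl and Pabpn1l filled ranks 3 to 5 in all 4 groups, in changing order. Pabpn1l, a nuclear-type poly(A)-binding protein of the oocyte, was at rank 3 in the H2A.Z control at 537 CPM per kilobase and at rank 5 in the DKO-labelled libraries at 251 CPM per kilobase. Zfp36l1 was the lowest in the H2A.Z control, at 0.039 CPM per kilobase. Cnot7, a deadenylase subunit, was at rank 6 in the H2A.Z control at 155 CPM per kilobase and was not among the first 9 in Mll2 KO.

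**Figure D1:**
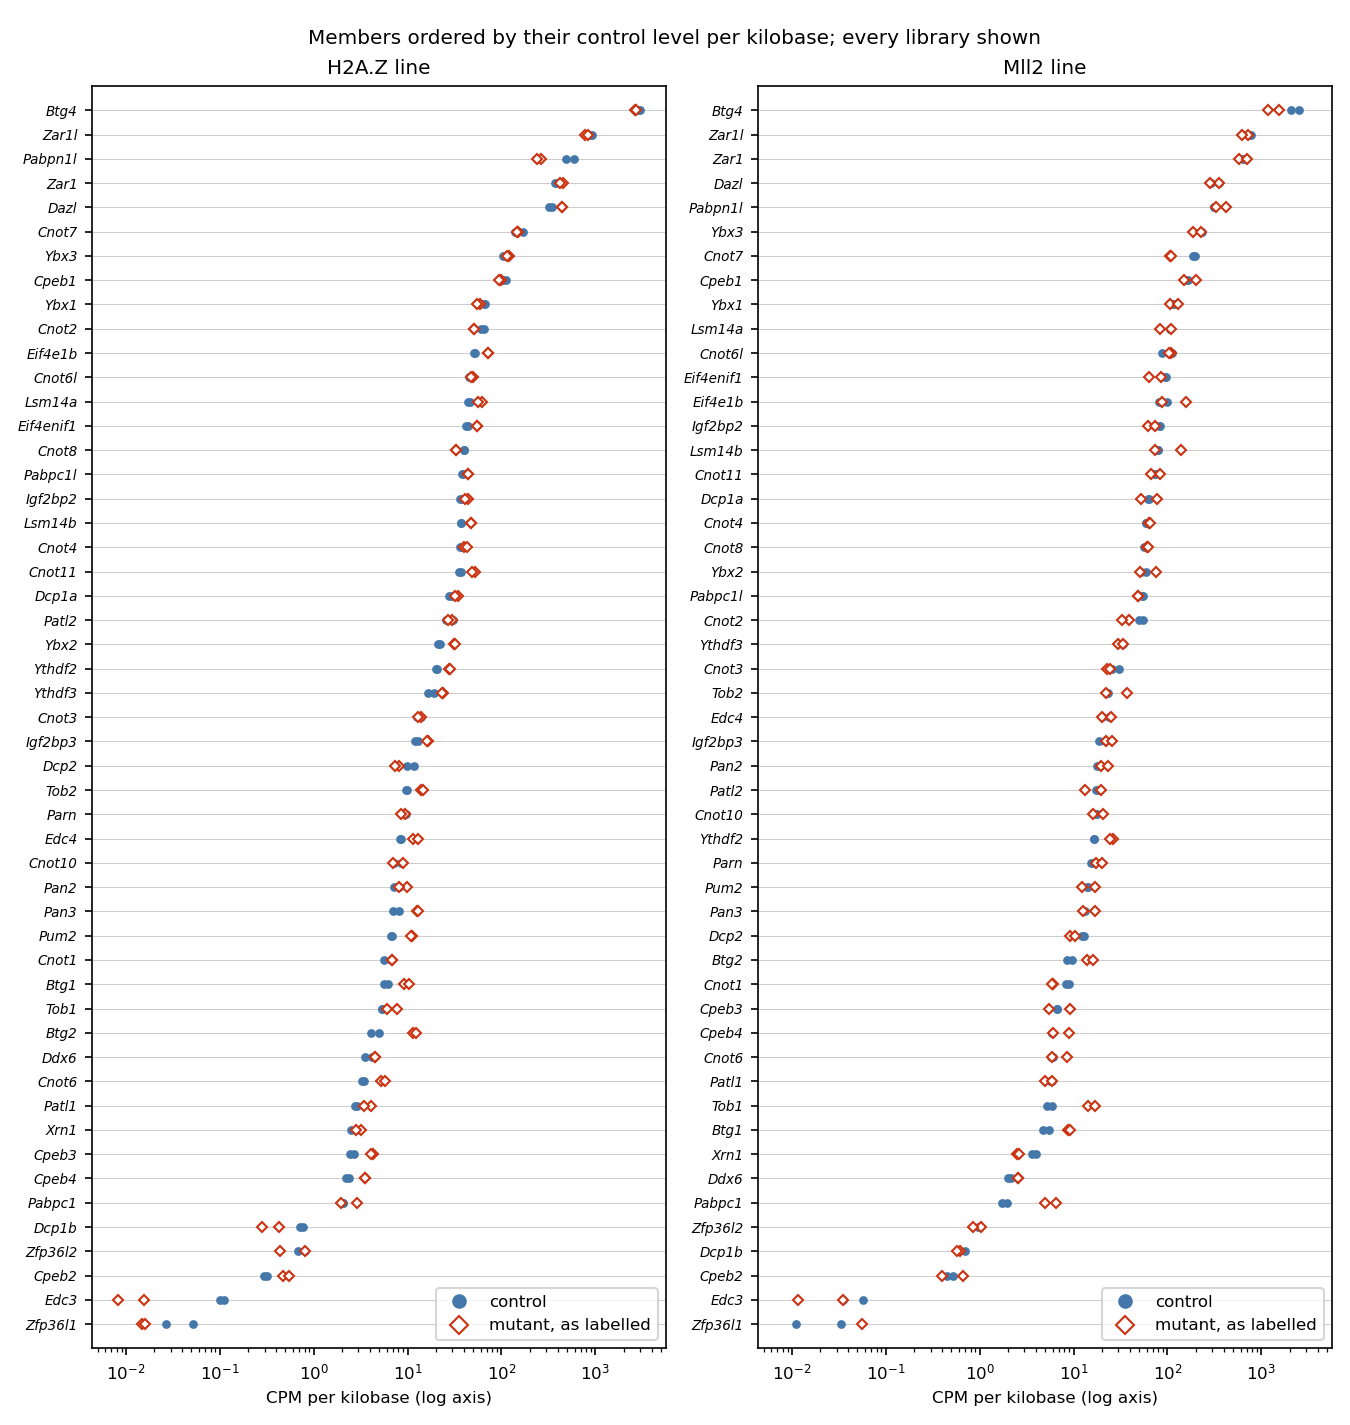
Levels of the 51 genes in CPM per kilobase of transcript on a log axis, 1 panel for each line with its control and mutant libraries. Each point is 1 library, and genes are in the order of that line's own control. Btg4 is highest in every group, and Zfp36l1 in Mll2 KO library 2, where its count was 0, is left out.

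More members were higher than lower in the DKO-labelled libraries, and the direction was more even in Mll2 KO. Between the DKO-labelled libraries and their controls, 17 of the 50 tested members were higher and 6 lower at an adjusted p under 0.05 in edgeR's quasi-likelihood test, or 46.0%. Among all 16847 tested genes 30.9% were called, 19.4% higher and 11.5% lower. The median log2 fold change of the members was 0.21, and that of all tested genes was 0.12. In Mll2 KO against Mll2 WT, 5 members were higher and 7 lower, or 24.0%, against 30.6% of all tested genes, of which 14.4% were higher and 16.2% lower. Here the median log2 fold change was 0.05 in the members and 0.02 over all tested genes. The 27 members not called in the DKO-labelled libraries had log2 fold changes from -0.23 to 0.71, and the 38 not called in Mll2 KO from -0.95 to 0.46.

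These counts changed with the scaling. With library size alone, the median of all genes lay at 0.00 for the DKO-labelled libraries and at 0.14 for Mll2 KO, and the members were called 10 higher and 8 lower in the first comparison and 9 higher and 5 lower in the second. With that scaling the share of all calls that were higher went from 62.9% to 45.5% for the DKO-labelled libraries and from 47.1% to 62.9% for Mll2 KO. The members above the median of all genes numbered 32 of 50 for the DKO-labelled libraries and 29 of 50 for Mll2 KO. Leaving out single libraries moved the number of members called higher in the DKO-labelled libraries from 6, without H2A.Z control 2, to 19, without Mll2 KO 1 or Mll2 KO 2, and the number lower from 1, without H2A.Z control 1, to 10, without Mll2 KO 1 or Mll2 KO 2. It moved the number higher in Mll2 KO from 5 to 19, the latter without Mll2 KO 1, and the number lower from 4 to 12, the latter without Mll2 KO 2. Of the 23 calls in the DKO-labelled libraries, 6 held without each library in turn and under every other setting, and so did 9 of the 12 calls in Mll2 KO.

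**Figure D2:**
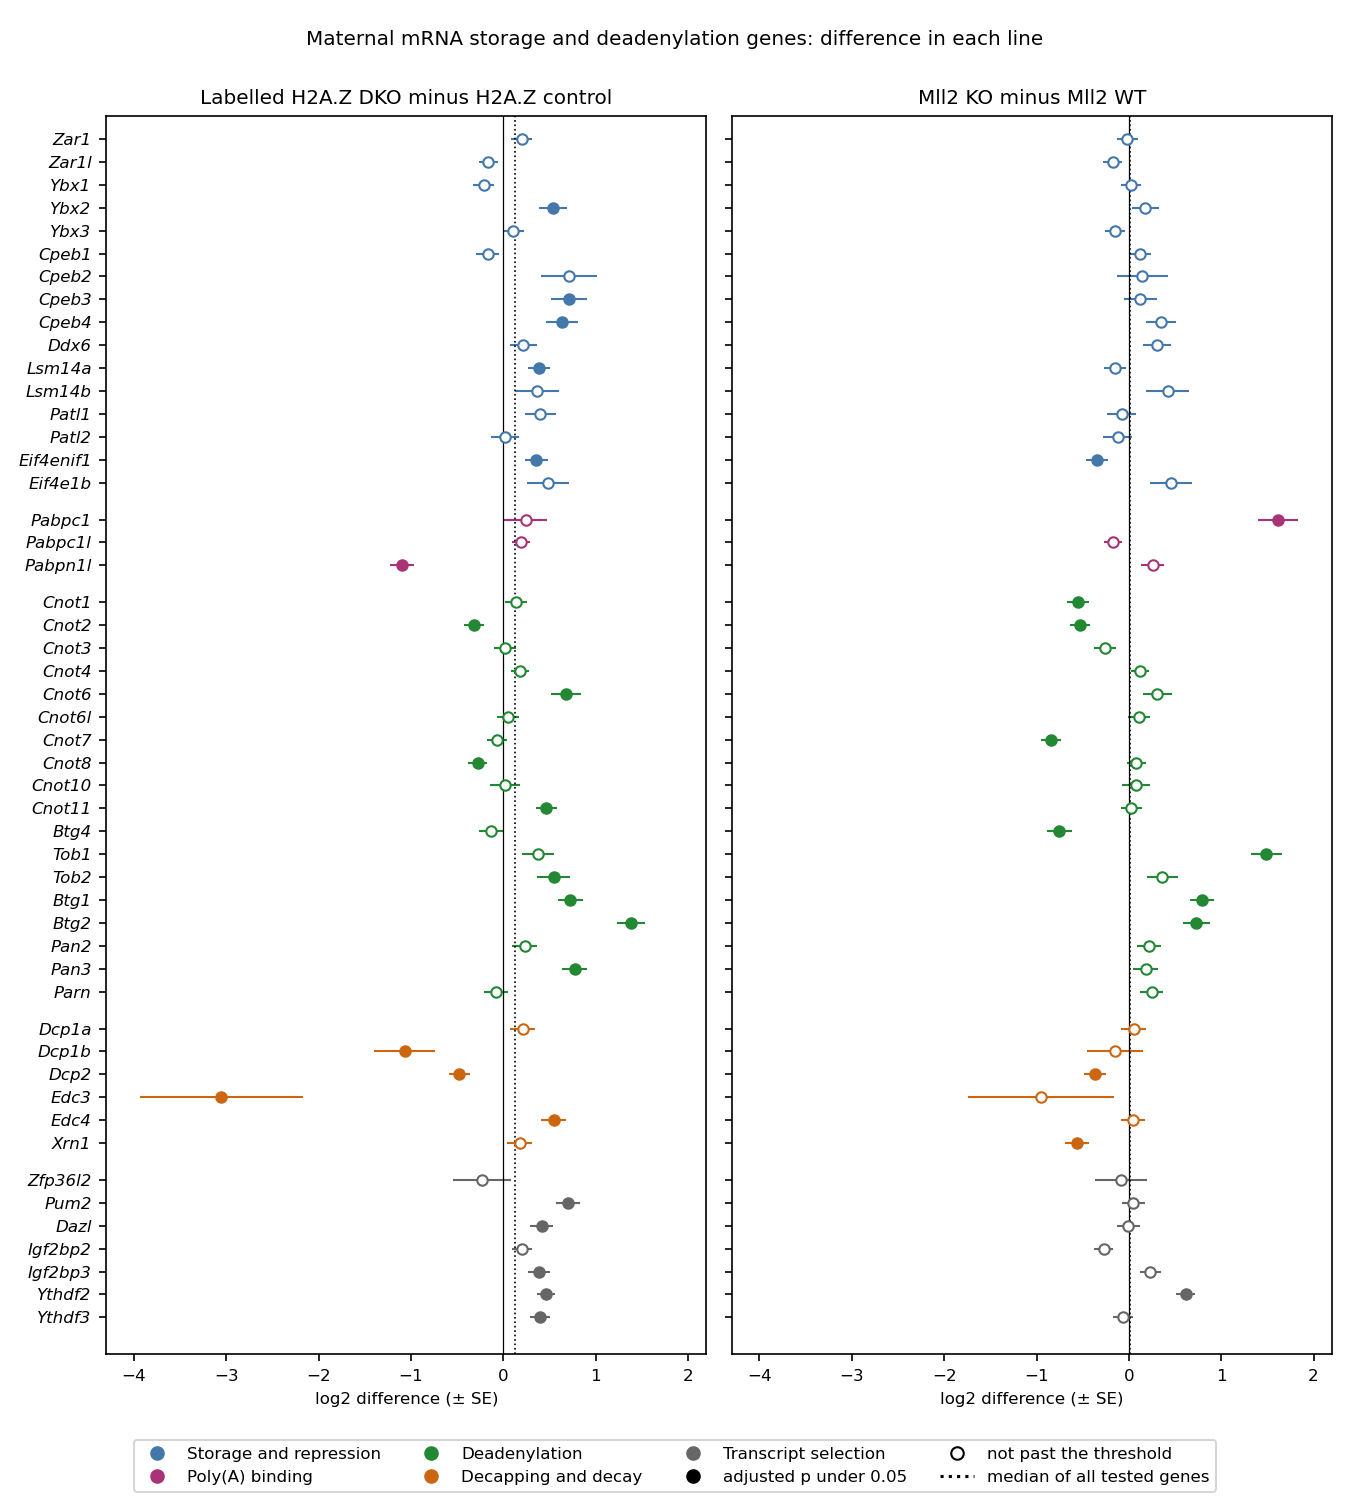
Log2 fold change and standard error of the 50 tested members, ordered by role, for the DKO-labelled libraries against the H2A.Z control and for Mll2 KO against Mll2 WT. Filled points passed an adjusted p under 0.05, 23 in the first comparison and 12 in the second.

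Of the storage genes with a known need in oocytes, Zar1, Zar1l, Cpeb1, Ddx6, Lsm14b and Patl2 did not pass the test in either line, and Ybx2 and Eif4enif1 did in at least 1. With the H2A.Z line fitted alone, Zar1l and Cpeb1 passed as lower in the DKO-labelled libraries (adjusted p = 0.000966 and 0.000866). Lsm14b passed as higher in that fit (0.0138), and as higher in Mll2 KO with no filter on low counts (0.0388). Zar1l also passed as lower in the DKO-labelled libraries with library size alone (0.0386). Among 16 tested storage genes, 5 were higher and none lower in the DKO-labelled libraries, or 31.2%, with a median log2 fold change of 0.36. In Mll2 KO none was higher and 1 lower, or 6.25%, with a median of 0.07. Over all tested genes 30.9% and 30.6% were called, with medians of 0.12 and 0.02. With library size alone as scaling, 2 storage genes were higher and 2 lower in the DKO-labelled libraries, while the median stayed above 0, at 0.24. With the H2A.Z line fitted alone, 7 were higher and 3 lower there. Without H2A.Z control 2, DKO 1 or Mll2 WT 2 no storage gene was called there, and the median was 0.35, 0.30 and 0.24. The 5 that rose were Ybx2, Cpeb3, Cpeb4, Lsm14a and Eif4enif1.

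Zar1, needed for the storage of maternal mRNA and for the first cleavage, was at 531 and 559 CPM in the H2A.Z control and 649 and 603 CPM in the DKO-labelled libraries. In Mll2 WT it was at 919 and 936 CPM and in Mll2 KO at 818 and 1018 CPM. The 2 groups overlapped in the Mll2 line and not in the H2A.Z line, and the log2 fold changes of 0.20 ± 0.11 (adjusted p = 0.198) and -0.01 ± 0.11 (adjusted p = 0.933) did not pass. Zar1l was at 827 and 782 CPM in the H2A.Z control, 687 and 751 in the DKO-labelled libraries, 694 and 659 in Mll2 WT against 639 and 558 in Mll2 KO. Both mutant groups lay below their controls, and the log2 fold changes of -0.16 ± 0.11 (adjusted p = 0.266) and -0.18 ± 0.11 (adjusted p = 0.221) did not pass.

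Ybx2, the germ cell Y-box protein MSY2 that coats stored mRNA, was at 35.2 and 37.4 CPM in the H2A.Z control. It was at 51.9 and 53.6 CPM in the DKO-labelled libraries, both above both controls. The log2 fold change was 0.54 ± 0.15 (adjusted p = 0.0147). In Mll2 WT Ybx2 was at 88 and 97.9 CPM and in Mll2 KO at 84.4 and 126 CPM, where the groups overlapped (adjusted p = 0.386). The somatic-type Y-box genes Ybx1 and Ybx3 did not pass in either line. Ybx1 passed as lower in the DKO-labelled libraries with that line fitted alone (adjusted p = 0.000871) and with library size alone (0.0422).

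The 4 Cpeb genes encode proteins that bind the cytoplasmic polyadenylation element and either mask or activate the mRNA. Cpeb1, the main form in the maturing oocyte, was at 351 and 324 CPM in the H2A.Z control and 305 and 294 in the DKO-labelled libraries, a log2 fold change of -0.17 ± 0.12 (adjusted p = 0.312). Cpeb3 went from 14.3 and 15.7 to 25.2 and 24 CPM (log2 fold change 0.71 ± 0.19, adjusted p = 0.0109). Cpeb4, which takes over from Cpeb1 in later meiosis, went from 15 and 13.8 to 22.4 and 22.3 CPM (log2 fold change 0.64 ± 0.17, adjusted p = 0.0114). In Mll2 KO none of the 4 passed, with log2 fold changes from 0.12 to 0.35. Cpeb2 was scarce, at 2.11 to 4.74 CPM over the 8 libraries.

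Eif4enif1 encodes 4E-T, which binds the cap-binding protein and holds messages in a repressed state, and was the single member called in opposite directions in the 2 lines. It rose from 163 and 157 CPM to 206 and 203 CPM in the DKO-labelled libraries (log2 fold change 0.36 ± 0.12, adjusted p = 0.0374). It fell from 349.5 and 357 CPM in Mll2 WT to 236 and 319.6 CPM in Mll2 KO (log2 fold change -0.35 ± 0.12, adjusted p = 0.0406). The groups did not overlap in either line. Both calls were lost with relative log expression scaling (adjusted p = 0.0753 and 0.0641), with library size alone (0.18 and 0.182) and in DESeq2 (0.0903 and 0.0728). Lsm14a, a repressor of translation in the same particles, rose from 135 and 129 to 181 and 164 CPM (log2 fold change 0.38 ± 0.12, adjusted p = 0.0237).

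None of the storage calls held without every library in turn. In the DKO-labelled libraries, Ybx2 was lost without H2A.Z control 1, H2A.Z control 2, DKO 1, DKO 2 or Mll2 WT 2 (adjusted p from 0.0673 to 0.105), Cpeb3 without H2A.Z control 1, H2A.Z control 2, DKO 1 or Mll2 WT 2 (adjusted p from 0.0503 to 0.0901) and Cpeb4 without H2A.Z control 2, DKO 1, DKO 2 or Mll2 WT 2 (adjusted p from 0.06 to 0.103). Lsm14a was lost without H2A.Z control 1, H2A.Z control 2, DKO 1, DKO 2 or Mll2 WT 2 (adjusted p from 0.0598 to 0.191) and Eif4enif1 without H2A.Z control 1, H2A.Z control 2, DKO 1, DKO 2, Mll2 WT 1 or Mll2 WT 2 (adjusted p from 0.0556 to 0.227). In Mll2 KO, Eif4enif1 was lost without H2A.Z control 1, H2A.Z control 2, DKO 1, DKO 2, Mll2 WT 1, Mll2 WT 2 or Mll2 KO 1 (adjusted p from 0.0605 to 0.218), and in the fit of that line alone (adjusted p = 0.139). Ybx2 and Lsm14a were also lost with library size alone (adjusted p = 0.0666 and 0.125), and Lsm14a in DESeq2 (0.0542).

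Ddx6, Lsm14b, Patl1, Patl2 and Eif4e1b, which encode an RNA helicase, its partners and an oocyte cap-binding protein, did not pass in either comparison. Eif4e1b passed as higher in both when no filter on low counts was used (adjusted p = 0.00206 and 0.00493). It also passed as higher in the DKO-labelled libraries with that line fitted alone (adjusted p = 0.00027). Ddx6, the helicase of the storage particle, was at 21.2 and 25.5 CPM in the H2A.Z control, 27.4 and 27.1 in the DKO-labelled libraries, 13 and 12.2 in Mll2 WT against 15.6 and 15.5 in Mll2 KO (adjusted p = 0.292 and 0.138). Both mutant libraries of each line were above both controls. Patl2, mutated in human oocyte maturation arrest, was at 62 and 73.8, 72 and 65.5, 44.7 and 42.1 and 47.4 and 32.4 CPM in the same order of groups (adjusted p = 0.95 and 0.586). Patl2 overlapped between mutant and control in both lines. Lsm14b, a partner of the helicase that is needed for meiosis, was at 94.6 and 95.1 CPM in the H2A.Z control and 123 and 122 in the DKO-labelled libraries (adjusted p = 0.278). Lsm14b and Eif4e1b differed within the Mll2 KO pair, with Lsm14b at 188 and 358 CPM and Eif4e1b at 187 and 339.7 CPM in libraries 1 and 2. In the same order the Mll2 WT libraries held 202 and 205 CPM of Lsm14b and 174 and 209 CPM of Eif4e1b. One Mll2 KO library lay within or below the Mll2 WT range and the other far above it for both genes, and neither passed (adjusted p = 0.2 for Lsm14b and 0.153 for Eif4e1b).

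Of the genes for poly(A)-binding proteins, the 2 that passed the test each did so in 1 line only. For both, the difference between the lines passed as well. Pabpn1l (chr8:122619471-122622735, minus strand) was at 678 and 554 CPM in the H2A.Z control and at 299.9 and 277 CPM in the DKO-labelled libraries. Both mutant libraries were below both controls, 2.14-fold lower, with a log2 fold change of -1.10 ± 0.13 (adjusted p = 1.73e-05). It was the single fall among the members in the DKO-labelled libraries that held without each library in turn. In the Mll2 line it was at 356 and 356 CPM in WT against 478 and 374 CPM in KO (log2 fold change 0.26 ± 0.13, adjusted p = 0.133). The effects of the 2 lines differed by -1.35 ± 0.18 on the log2 scale (adjusted p = 9.22e-05).

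Pabpc1 (chr15:36595658-36609581, minus strand), the cytoplasmic poly(A)-binding protein of somatic cells, moved in the Mll2 line. It was at 4.89 and 5.54 CPM in Mll2 WT against 13.9 and 18.1 CPM in Mll2 KO, without overlap and 3.07-fold higher (log2 fold change 1.62 ± 0.22, adjusted p = 5.74e-05). In the H2A.Z control it was at 5.84 and 5.74 CPM and in the DKO-labelled libraries at 5.5 and 8.21 CPM, with overlap (adjusted p = 0.459). The difference between the lines was -1.37 ± 0.32 (adjusted p = 0.0068). Pabpc1l, its oocyte paralog also called ePAB, was at 126 and 129.7 CPM in Mll2 WT against 114 and 114 CPM in Mll2 KO and at 91.6 and 90.3 CPM in the H2A.Z control and 103 and 104 in the DKO-labelled libraries. It did not pass in either line. Pabpc1 shares more than 90% identity over at least 300 bases with 2 processed pseudogene transcripts of the GENCODE annotation that are not among the symbols of the count table, so reads from these copies may be counted in it. Granulosa and cumulus markers summed to 99.5 and 101.6 CPM in Mll2 WT, against 110.7 and 111.3 CPM in Mll2 KO, and their part in the rise of Pabpc1 was not tested.

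Among the 18 deadenylation genes, the adaptors Btg1 and Btg2 rose in both lines, Tob2 in the DKO-labelled libraries and Tob1 in Mll2 KO, while Btg4, the oocyte adaptor, fell in Mll2 KO. Of the 18, 6 passed as higher and 2 as lower in the DKO-labelled libraries, or 44.4%, with a median log2 fold change of 0.16. In Mll2 KO 3 were higher and 4 lower, or 38.9%, with a median of 0.12. Over all tested genes 30.9% and 30.6% were called. Of the 5 adaptors, 3 were higher in the DKO-labelled libraries, or 60.0%, and 3 higher and 1 lower in Mll2 KO, or 80.0%. BTG and TOB proteins join the catalytic subunits CNOT7 and CNOT8 to RNA-bound partners.

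The sequences upstream of 4 of the 5 adaptors are shown so that Btg1, Btg2 and Tob1, which rose in at least 1 line, can be set beside Btg4, which fell. The window of Tob2, which rose as well, lies within exons of the GENCODE annotation and is described by its values only. Each window is the 250 bases before the start of transcription in the RefSeq promoter table (build GRCm38.p6), written 5′ to 3′ on the strand of the gene, with each CG in capitals. The window of Btg1 is at chr10:96616751-96617000 on the plus strand, Btg2 at chr1:134079156-134079405 on the minus strand, Tob1 at chr11:94211204-94211453 on the plus strand, Tob2 at chr15:81858327-81858576 on the minus strand and Btg4 at chr9:51115751-51116000 on the plus strand.
Btg1: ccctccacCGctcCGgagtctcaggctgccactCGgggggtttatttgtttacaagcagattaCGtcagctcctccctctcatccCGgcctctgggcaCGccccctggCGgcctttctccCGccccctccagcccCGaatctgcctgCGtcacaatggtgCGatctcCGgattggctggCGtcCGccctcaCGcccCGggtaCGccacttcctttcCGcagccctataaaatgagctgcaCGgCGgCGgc
Btg2: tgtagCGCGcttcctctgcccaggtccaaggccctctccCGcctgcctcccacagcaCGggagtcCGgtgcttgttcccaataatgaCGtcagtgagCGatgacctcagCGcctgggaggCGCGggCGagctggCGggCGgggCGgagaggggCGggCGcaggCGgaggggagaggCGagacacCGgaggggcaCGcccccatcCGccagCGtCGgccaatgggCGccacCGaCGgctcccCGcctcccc
Tob1: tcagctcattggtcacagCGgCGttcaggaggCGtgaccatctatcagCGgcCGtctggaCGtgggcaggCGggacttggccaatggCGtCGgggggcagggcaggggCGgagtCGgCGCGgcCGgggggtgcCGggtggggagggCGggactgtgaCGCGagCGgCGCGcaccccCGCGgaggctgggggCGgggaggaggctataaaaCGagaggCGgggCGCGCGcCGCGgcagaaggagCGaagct
Btg4: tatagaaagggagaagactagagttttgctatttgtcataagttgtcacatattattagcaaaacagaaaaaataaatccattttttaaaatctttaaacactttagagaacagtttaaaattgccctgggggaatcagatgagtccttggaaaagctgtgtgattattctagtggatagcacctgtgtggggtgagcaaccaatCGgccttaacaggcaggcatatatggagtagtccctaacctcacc
For Tob1 and Btg4 the RefSeq gene begins farther upstream than the start used. The windows of Btg1, Btg2, Tob1 and Tob2 hold 21, 27, 32 and 16 CG dinucleotides, and that of Btg4 holds 1. The ratio of observed to expected CG was 0.84, 0.81, 1.05 and 0.74 in the first 4 and 0.11 in Btg4. Btg4 does not stand for every member that fell. Of the 4 members with a promoter that were lower in Mll2 KO, 2 had a ratio above 0.6 over a window of 300 bases. These were Eif4enif1 (0.99) and Xrn1 (0.90). The letters CCAAT, searched on both strands, occur in every window but that of Tob2, and in 36.0% of the 12440 windows of tested genes. TGACGTCA, which reads the same on both strands, is found in Btg2 alone of the 5, and in 2.4% of all windows. TATAAA, also searched on both strands, occurs in Btg1 and Tob1 and not in the other 3, against 8.18% of all windows.

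Btg2 (chr1:134074865-134079155, minus strand), an antiproliferative adaptor first described as an immediate early gene, had the largest rise of any member in the DKO-labelled libraries. It was at 11.3 and 13.8 CPM in the H2A.Z control and 31.7 and 34 CPM in the DKO-labelled libraries, 2.61-fold higher with no overlap (log2 fold change 1.38 ± 0.15, adjusted p = 1.04e-05). In Mll2 WT it was at 26.5 and 23.2 CPM and in Mll2 KO at 38.4 and 44 CPM, again without overlap (log2 fold change 0.73 ± 0.15, adjusted p = 0.0015). Its close relative Btg1 (chr10:96617001-96622813, plus strand) rose in both lines. Btg1 was at 30.7 and 28.4 CPM in the H2A.Z control, 45.7 and 51.9 in the DKO-labelled libraries, 27.4 and 23.7 in Mll2 WT against 43.2 and 45.4 in Mll2 KO. The log2 fold changes were 0.73 ± 0.13 (adjusted p = 0.00081) and 0.79 ± 0.13 (adjusted p = 0.000351), and their difference was -0.07 ± 0.19 (adjusted p = 0.844). For Btg1 and Btg2 all 4 calls held without each library in turn and under every other setting.

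Tob1 (chr11:94209842-94215495, plus strand), an adaptor that also binds poly(A)-binding protein, rose in the Mll2 line. It was at 13.4 and 12 CPM in Mll2 WT against 32.3 and 39.2 CPM in Mll2 KO, 2.81-fold higher (log2 fold change 1.49 ± 0.17, adjusted p = 8.38e-06). In the H2A.Z control it was at 12.2 and 12.2 CPM and in the DKO-labelled libraries at 17.6 and 13.9 CPM (log2 fold change 0.38 ± 0.17, adjusted p = 0.109). Its groups did not overlap in either line. The 2 effects differed by -1.11 ± 0.24 (adjusted p = 0.00408). Tob2 was at 41.1 and 39.6 CPM in the H2A.Z control and 57.9 and 59.9 CPM in the DKO-labelled libraries (log2 fold change 0.55 ± 0.18, adjusted p = 0.0307). Tob2 was lost without H2A.Z control 1, H2A.Z control 2, DKO 1, DKO 2 or Mll2 WT 2 (adjusted p from 0.101 to 0.155), and with relative log expression scaling (0.0635) or library size alone (0.11).

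Btg4 (chr9:51102147-51119924, plus strand) directs the removal of maternal mRNA during meiotic maturation and is needed for development past the first cleavage. It was at 3086 and 3711 CPM in Mll2 WT against 2281 and 1749.7 CPM in Mll2 KO, 1.69-fold lower with no overlap (log2 fold change -0.75 ± 0.13, adjusted p = 0.000612). In the H2A.Z control it was at 4434 and 4256 CPM and in the DKO-labelled libraries at 3884 and 4061 CPM (log2 fold change -0.13 ± 0.13, adjusted p = 0.495). With the H2A.Z line fitted alone Btg4 passed as lower there, at a log2 fold change of -0.25 (adjusted p = 0.00219). The fall in Mll2 KO held in every alternative. The difference between the lines was 0.62 ± 0.19 (adjusted p = 0.0284), and it was lost without H2A.Z control 1, H2A.Z control 2, DKO 1, DKO 2 or Mll2 WT 2 (adjusted p from 0.0756 to 0.197) and with library size alone (0.117).

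Set beside the summed Btg1, Btg2, Tob1 and Tob2, the CPM of Btg4 were 46.6 and 45.3 times as high in the H2A.Z control and 25.4 and 25.4 times as high in the DKO-labelled libraries. In Mll2 WT the ratio was 18.8 and 24.4 and in Mll2 KO 11.1 and 6.22. The ratio was lower in both mutant libraries than in both controls of each line. It was also lower in both Mll2 WT libraries than in both DKO-labelled libraries. The 4 somatic adaptors summed to 95.2 and 94.0 CPM in the H2A.Z control, 152.9 and 159.8 in the DKO-labelled libraries, 164 and 152.4 in Mll2 WT and 206 and 281 in Mll2 KO. Granulosa and cumulus markers moved in the same direction in the H2A.Z line, from 104.1 and 110.3 to 150.7 and 151.5 CPM in sum, and their part in the rise of the adaptors was not tested. The ratios are of CPM without correction for length, so only their change between libraries can be read. They were not tested.

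**Figure D3:**
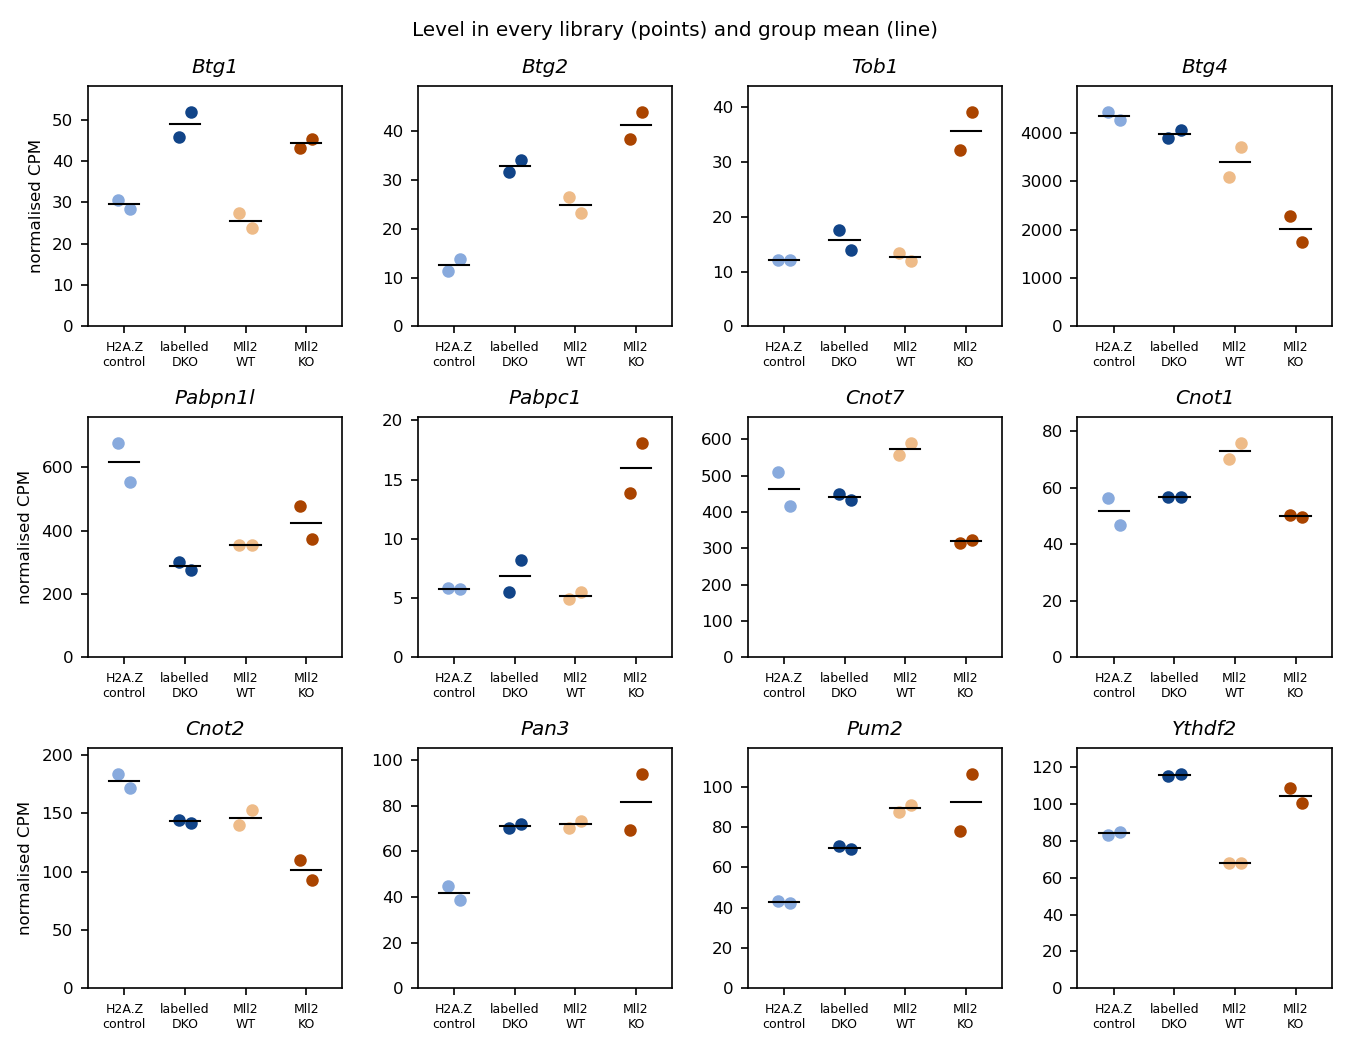
CPM of 12 members in each of the 8 libraries, 1 panel for each gene, with 2 points per group and a bar at the group mean, each axis starting at 0. Btg1, Btg2 and Ythdf2 are higher in both mutant groups than in their controls, Tob1 and Pabpc1 are highest in Mll2 KO, and Pabpn1l is lowest in the DKO-labelled libraries.

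The genes for the subunits of CCR4-NOT, the main cytoplasmic deadenylase, did not move together. Of 10 tested subunits 2 were higher and 2 lower in the DKO-labelled libraries, or 40.0%, with a median log2 fold change of 0.03. In Mll2 KO none was higher and 3 lower, or 30.0%, with a median of 0.05. Over all tested genes 30.9% and 30.6% were called. The 3 that fell in Mll2 KO were Cnot1, the scaffold of the complex, Cnot2, a subunit of its NOT module, and Cnot7, a catalytic subunit of the Caf1 type. All 3 falls held without each library in turn and under every other setting.

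Cnot7 (chr8:40492538-40515847, minus strand) was at 558 and 590.4 CPM in Mll2 WT against 315 and 324 CPM in Mll2 KO, 1.8-fold lower with no overlap. Its log2 fold change was -0.84 ± 0.11 (adjusted p = 4.02e-05). In the H2A.Z line Cnot7 was at 511 and 415 CPM in the control and 450.0 and 434 CPM in the DKO-labelled libraries, with overlap (adjusted p = 0.687). With that line fitted alone it passed as lower, at a log2 fold change of -0.19 (adjusted p = 0.0463). The difference between the lines was 0.78 ± 0.16 (adjusted p = 0.00263). Cnot7 shares 5.0% of its exon bases with Zdhhc2 on the other strand, and use of strand in counting is not stated in the sources used here. Its paralog Cnot8 was at 124 and 118 CPM in Mll2 WT against 126 and 129.9 CPM in Mll2 KO, so the CPM ratio of Cnot7 to Cnot8 was 4.50 and 5.02 in Mll2 WT and 2.51 and 2.49 in Mll2 KO. In the H2A.Z control that ratio was 6.15 and 4.91, and in the DKO-labelled libraries 6.52 and 6.27.

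Cnot1 (chr8:95718931-95808113, minus strand) was at 70.3 and 76 CPM in Mll2 WT against 50.5 and 49.6 CPM in Mll2 KO (log2 fold change -0.55 ± 0.12, adjusted p = 0.00286). The H2A.Z control held 56.6 and 47 CPM of Cnot1 and the DKO-labelled libraries 56.7 and 56.9 CPM, which did not pass (adjusted p = 0.424). Cnot2 (chr10:116485160-116581900, minus strand) was lower in both lines. It went from 139.7 and 153 CPM in Mll2 WT to 109.8 and 93 CPM in Mll2 KO (log2 fold change -0.53 ± 0.11, adjusted p = 0.00184), and from 184 and 172 CPM in the H2A.Z control to 145 and 142 CPM in the DKO-labelled libraries (log2 fold change -0.31 ± 0.11, adjusted p = 0.0373).

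In the DKO-labelled libraries, Cnot8 fell from 83 and 84.5 to 69 and 69.3 CPM (log2 fold change -0.28 ± 0.10, adjusted p = 0.0478). Cnot6, a catalytic subunit of the Ccr4 type, rose from 18.9 and 20.0 to 29.6 and 32.7 CPM (0.68 ± 0.16, adjusted p = 0.00562), and Cnot11, a structural subunit, from 129 and 124 to 181 and 168 CPM (0.47 ± 0.11, adjusted p = 0.00561). Cnot6l, the Ccr4-type enzyme known for its part in maternal mRNA decay in mouse oocytes, was at 408 and 389.7 CPM in the H2A.Z control and 424 and 403 CPM in the DKO-labelled libraries, with overlap (adjusted p = 0.779). In Mll2 WT Cnot6l was at 948 and 745 CPM and in Mll2 KO at 931 and 895 CPM (adjusted p = 0.506). The calls in the DKO-labelled libraries were lost for Cnot2 without H2A.Z control 1, H2A.Z control 2, DKO 1, DKO 2 or Mll2 WT 1 (adjusted p from 0.0588 to 0.235), for Cnot6 without DKO 2 or H2A.Z control 1 (adjusted p from 0.0569 to 0.0588), for Cnot8 without H2A.Z control 1, H2A.Z control 2, DKO 1, DKO 2 or Mll2 WT 1 (adjusted p from 0.0837 to 0.21) and for Cnot11 without H2A.Z control 2, DKO 1 or Mll2 WT 2 (adjusted p from 0.0555 to 0.0723). Cnot8 was also lost with no filter on low counts (adjusted p = 0.0936).

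Outside CCR4-NOT, Pan3 rose in the DKO-labelled libraries. Pan3 (chr5:147426208-147548501, plus strand) encodes the regulatory subunit of the PAN2-PAN3 deadenylase, which trims long tails. It was at 44.8 and 38.6 CPM in the H2A.Z control and 70.2 and 71.9 CPM in the DKO-labelled libraries, 1.71-fold higher with no overlap (log2 fold change 0.77 ± 0.14, adjusted p = 0.000726), and the call held in every alternative. In Mll2 WT it was at 70.4 and 73.3 CPM and in Mll2 KO at 69.5 and 93.9 CPM, with overlap (adjusted p = 0.319). Pan2, the catalytic subunit, and Parn, a separate poly(A) ribonuclease, did not pass in either line.

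Of the 6 decapping and 5′ decay genes, Dcp2, Dcp1b and Edc3 fell and Edc4 rose in the DKO-labelled libraries, and Dcp2 and Xrn1 fell in Mll2 KO. The shares called were 66.7% and 33.3%, against 30.9% and 30.6% of all tested genes. The median log2 fold change was -0.15 in the first comparison, where 3 of the 6 values were above 0, and -0.26 in the second, beside 0.12 and 0.02 over all tested genes. Without H2A.Z control 1 the calls in the DKO-labelled libraries were 1 higher and none lower, and without Mll2 WT 2 none of the 6 was called in Mll2 KO. Dcp2, the decapping enzyme, was lower in both lines. It went from 101 and 84.6 CPM in the H2A.Z control to 69.4 and 63.8 CPM in the DKO-labelled libraries (log2 fold change -0.48 ± 0.12, adjusted p = 0.00657). The Mll2 line showed 105 and 111 CPM of Dcp2 in WT against 78.6 and 89 CPM in KO (log2 fold change -0.36 ± 0.12, adjusted p = 0.0263). The groups did not overlap in either line.

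Xrn1 (chr9:95954750-96057806, plus strand), the 5′ to 3′ exonuclease that degrades decapped mRNA, was at 37 and 40.5 CPM in Mll2 WT against 25.8 and 26.7 CPM in Mll2 KO. The log2 fold change was -0.56 ± 0.13 (adjusted p = 0.00523), and the call was lost without Mll2 WT 2 (adjusted p = 0.0643). In the H2A.Z line Xrn1 was at 29.1 and 25.8 CPM in the control and 32.8 and 29 CPM in the DKO-labelled libraries and did not pass (adjusted p = 0.354).

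The cofactors of decapping divided in the DKO-labelled libraries. Edc4, a scaffold of the decapping complex, rose from 41 and 39.5 to 55.2 and 62.3 CPM (log2 fold change 0.55 ± 0.13, adjusted p = 0.00602). Dcp1b, a paralog of the DCP2 activator Dcp1a, fell from 2.38 and 2.55 to 0.932 and 1.42 CPM, with 110 counts over both controls and 51 over both DKO-labelled libraries, a ratio per scaled library total of 0.472 (95% counting interval 0.332 to 0.664). Edc3, an enhancer of decapping, had 11 and 16 counts in the H2A.Z control and 2 and 1 in the DKO-labelled libraries, a ratio of 0.113 on the same scale (95% counting interval 0.022 to 0.368). The counting intervals cover counting error only, since PCR copies were not marked by molecular identifiers. Both low genes passed the test, with adjusted p = 0.0237 for Dcp1b and 0.0163 for Edc3. Edc3 shares 10.2% of its exon bases with Clk3 on the other strand. Its longest coding transcript matched a Clk3 transcript at 100% identity over 1121 of 5708 bases. Clk3 reached a group mean of 83.3 CPM, so the few Edc3 counts may include reads from Clk3. Dcp1a itself did not pass in either line.

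For Dcp2 the call in the DKO-labelled libraries was lost without DKO 2 or H2A.Z control 1 (adjusted p from 0.0825 to 0.124), and that in Mll2 KO without Mll2 WT 1, Mll2 WT 2 or Mll2 KO 1 (adjusted p from 0.0503 to 0.148), with library size alone (0.123) and with the line fitted alone (0.0759). Edc4 was lost without DKO 2 or H2A.Z control 2 (adjusted p from 0.0653 to 0.0775), Dcp1b without H2A.Z control 1, H2A.Z control 2 or DKO 1 (adjusted p from 0.0816 to 0.203) and Edc3 without H2A.Z control 1, H2A.Z control 2, DKO 1 or DKO 2 (adjusted p from 0.0733 to 0.125). DESeq2 did not call Dcp1b (adjusted p = 0.0528) or Edc3 (0.0604).

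Genes for proteins that choose which mRNA is stored or degraded were mostly higher in the DKO-labelled libraries. Of 7 tested selectors, 5 were higher and none lower there, or 71.4%, with a median log2 fold change of 0.40. In Mll2 KO 1 was higher and none lower, or 14.3%, with a median of 0.00. Over all tested genes 30.9% and 30.6% were called, with medians of 0.12 and 0.02. With library size alone, 2 of the 5 calls in the DKO-labelled libraries remained. Ythdf2 (chr4:132184916-132212256, minus strand) is a reader of N6-methyladenosine that brings methylated maternal mRNA to decay, and it rose in both lines. It was at 83.5 and 84.9 CPM in the H2A.Z control and 115 and 116 CPM in the DKO-labelled libraries, and at 68.3 and 68.2 CPM in Mll2 WT against 107.9 and 100.5 CPM in Mll2 KO. All mutant libraries were above all controls of their line, with log2 fold changes of 0.46 ± 0.10 (adjusted p = 0.00307) and 0.61 ± 0.10 (adjusted p = 0.000333). Both calls held in every alternative. Like Pabpc1, Ythdf2 has 2 processed pseudogene transcripts of over 90% identity that are not among the symbols of the count table. Btg1, Cnot1 and Cnot8 each match 1 such transcript, at 98.7% identity over 312 bases, 90.4% over 313 and 97.8% over 760.

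Pum2 (chr12:8674092-8752583, plus strand), a Pumilio repressor that binds mRNA, was at 43.5 and 42.5 CPM in the H2A.Z control and 70.4 and 69.3 CPM in the DKO-labelled libraries. It was 1.62-fold higher without overlap (log2 fold change 0.70 ± 0.13, adjusted p = 0.00107), and the call held in every alternative. In Mll2 WT Pum2 was at 87.7 and 90.9 CPM and in Mll2 KO at 78.3 and 106 CPM, with overlap (adjusted p = 0.797). Dazl, a germ cell RNA-binding protein that drives translation in the maturing oocyte, rose from 1019.8 and 958 to 1307 and 1328 CPM in the DKO-labelled libraries (log2 fold change 0.41 ± 0.12, adjusted p = 0.0182).

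Ythdf3, a relative of Ythdf2, and Igf2bp3, an mRNA-stabilising protein, also rose in the DKO-labelled libraries, with log2 fold changes of 0.40 ± 0.11 (adjusted p = 0.0105) and 0.38 ± 0.12 (adjusted p = 0.0225). Igf2bp3 shares 35.2% of its exon bases with Malsu1 on the other strand, so reads of the 2 genes may not be told apart. Igf2bp2, an mRNA-binding protein known as a maternal factor of the early embryo, was at 149 and 140.1 CPM in the H2A.Z control, 172 and 159 in the DKO-labelled libraries, 321 and 324 in Mll2 WT against 243 and 289.9 in Mll2 KO. It did not pass in either line (adjusted p = 0.177 and 0.0619). Zfp36l2, an ARE-binding protein known from oocyte maturation, was scarce, at 2.38 and 2.83 CPM in the H2A.Z control, 2.88 and 1.57 in the DKO-labelled libraries, 3.57 and 3.43 in Mll2 WT against 3.61 and 2.99 in Mll2 KO, and did not pass. Among these calls, Dazl was lost without H2A.Z control 1, H2A.Z control 2, DKO 1, DKO 2 or Mll2 WT 2 (adjusted p from 0.0631 to 0.151), Igf2bp3 without H2A.Z control 1, H2A.Z control 2, DKO 1, DKO 2 or Mll2 WT 2 (adjusted p from 0.0817 to 0.163) and Ythdf3 without H2A.Z control 2, DKO 1, DKO 2 or Mll2 WT 2 (adjusted p from 0.0583 to 0.164). Each was also lost with library size alone (adjusted p = 0.0555, 0.147 and 0.0615), and Igf2bp3 in DESeq2 (0.0545).

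The members changed in both lines about as often as genes at large. Btg1, Btg2 and Ythdf2 were higher in both, or 6.0% against 5.86% of all tested genes, and Cnot2 and Dcp2 lower in both, or 4.0% against 4.39%, so 5 of 50 were called the same way in both lines, while 10.3% of all tested genes were. That count was 3 without H2A.Z control 1, DKO 2 or Mll2 WT 1, and 16 without Mll2 KO 1. Eif4enif1 was called in opposite ways, or 2.0%, against 2.37% of all tested genes. In neither line were 21 members called, or 42.0%, against 51.2% of all tested genes. The 2 comparisons share no library, though they share 1 fit and its estimate of spread.

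The effect in the DKO-labelled libraries differed from the effect in Mll2 KO for 14 members, or 28.0%, against 19.5% of all tested genes. It was higher for 11 and lower for 3, against 12.9% and 6.68% of all tested genes. The 3 with the lower effect in the DKO-labelled libraries were Pabpc1, Pabpn1l and Tob1, and among the 11 were Cnot1, Cnot7, Btg4, Btg2, Pan3, Pum2 and Xrn1. With library size alone the count was 1 higher and 6 lower, a scaling under which the median of all genes fell for the DKO-labelled libraries and rose for Mll2 KO. Cnot7, Pabpc1, Pabpn1l and Tob1 kept their call in every alternative in which the difference could be computed.

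**Figure D4:**
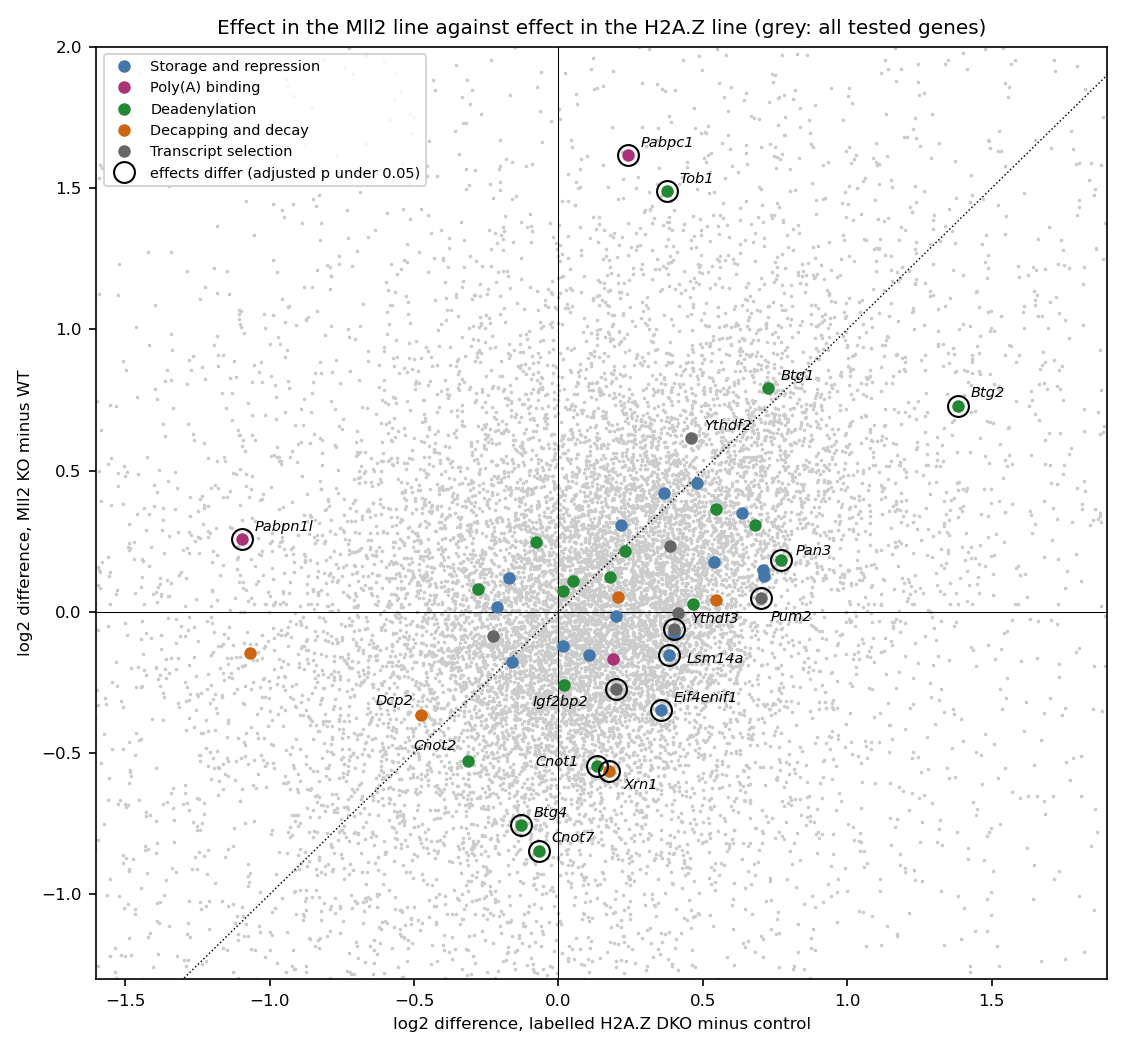
Log2 fold change in the DKO-labelled libraries (x axis) against that in Mll2 KO (y axis), members as coloured points and the other tested genes in grey. Btg1, Btg2 and Ythdf2 lie above 0 on both axes, Pabpc1 and Tob1 are high on the y axis, and Pabpn1l is low on the x axis. Edc3 and some grey points lie outside the axes.

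Other genes of poly(A) tail metabolism were tested beside the members, 122 of 127 having passed the filter. In the DKO-labelled libraries 37 were higher and 7 lower, or 36.1%, and in Mll2 KO 25 were higher and 24 lower, or 40.2%, against 30.9% and 30.6% of all tested genes. With library size alone the counts in Mll2 KO were 39 higher and 12 lower, and the number higher ranged from 9 without Mll2 WT 2 to 43 without Mll2 KO 1. The median log2 fold change of these 122 was 0.21 in the first comparison and 0.10 in the second. Trim71, a regulator of maternal and germ line mRNA, fell in both lines, from a mean of 245 to 117 CPM in the DKO-labelled libraries (log2 fold change -1.07 ± 0.17, adjusted p = 0.000611) and from 171 to 63.9 CPM in Mll2 KO (-1.42 ± 0.17, adjusted p = 6.53e-05). Rbbp6, a factor of 3′ end cleavage, rose in both, by 1.03 ± 0.19 (adjusted p = 0.00071) and 1.5 ± 0.17 (adjusted p = 1.33e-05) on the log2 scale, and so did Exosc6, a subunit of the exosome, by 1.15 ± 0.20 (adjusted p = 0.000566) and 1.21 ± 0.19 (adjusted p = 0.000256). In the DKO-labelled libraries Wdr33, which recognises the polyadenylation signal, rose from a mean of 254 to 421 CPM (log2 fold change 0.73 ± 0.10, adjusted p = 9.86e-05), and Upf1, the helicase of nonsense-mediated decay, by 0.68 ± 0.13 (adjusted p = 0.00106). Dcps, a scavenger of cap remnants, fell there by 0.91 ± 0.19 (adjusted p = 0.00243), Angel2 had a log2 fold change of -0.38 (adjusted p = 0.023), and Zcchc11, a terminal uridylyltransferase, went from 0.75 to 0.12 CPM (adjusted p = 0.0197). In Mll2 KO Lsm1, a subunit of the ring that binds shortened tails, rose from 71.3 to 151 CPM (1.08 ± 0.12, adjusted p = 6.12e-06), and Wdr61, a Ski complex subunit, from 9.82 to 23.1 CPM (1.24 ± 0.16, adjusted p = 2.93e-05).

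By function, 16 genes for further poly(A)- and cap-binding proteins showed 3 higher and none lower in the DKO-labelled libraries, and 2 higher and 7 lower in Mll2 KO. The 7 included Larp4, which protects poly(A) tails, at 116 CPM in Mll2 WT against 64.0 CPM in Mll2 KO (log2 fold change -0.86 ± 0.12, adjusted p = 6.53e-05), and Paip1, a partner of poly(A)-binding protein (-0.69 ± 0.10, adjusted p = 0.000124). Of 10 other deadenylases and their partners 5 were higher and 1 lower in the DKO-labelled libraries, and 4 higher and none lower in Mll2 KO. The 9 poly(A) polymerases and terminal transferases showed 1 higher and 1 lower in the first comparison and 3 lower in the second, among them Papolg (-0.86 ± 0.13, adjusted p = 0.000138). Cleavage and polyadenylation factors numbered 4 higher and 1 lower of 18 in the DKO-labelled libraries, and 5 higher and 1 lower in Mll2 KO. The 29 further RNA-binding regulators included 11 higher and 2 lower in the DKO-labelled libraries, and 6 higher and 5 lower in Mll2 KO. For 40 genes of the exosome and of mRNA surveillance the counts were 13 higher and 2 lower, and 8 higher and 8 lower. In the order given, the shares called in the DKO-labelled libraries were 18.8%, 60.0%, 22.2%, 27.8%, 44.8% and 37.5%, against 30.9% of all tested genes. In Mll2 KO they were 56.2%, 40.0%, 33.3%, 33.3%, 37.9% and 40.0%, against 30.6%.

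The control groups of the 2 lines differed for most members. Both Mll2 WT libraries were above both H2A.Z control libraries for 37 of 50 members, or 74.0%, and below them for 11, or 22.0%, while over all tested genes these shares were 38.0% and 37.2%. The median log2 ratio of Mll2 WT to H2A.Z control, on CPM with 0.1 added, was 0.745 in the members and -0.0129 over all tested genes. Cpeb3 had the largest ratio, 2.63, followed by Edc4, Cpeb4 and Ybx2, which was 2.55 times as high in Mll2 WT. Edc3, Ddx6, Pabpn1l and Patl2 were lowest relative to the H2A.Z control, at log2 ratios of -0.972, -0.885, -0.783 and -0.64. The line, the day of preparation and any other feature of these groups cannot be told apart, and the difference was not tested. Ybx2, Cpeb3, Cpeb4, Edc4 and Pum2, which rose in the DKO-labelled libraries, remained below both Mll2 WT libraries there.

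The 2 Mll2 KO libraries also differed from each other for the members. Library 2 was higher than library 1 for 36 of 50 members, or 72.0%, against 49.2% of all tested genes, with a median log2 ratio of 0.237 against -0.00297. For the 16 storage genes it was higher in 13, with a median of 0.401. The widest gaps were in Lsm14b (0.933), Eif4e1b (0.861), Tob2 (0.735), Cpeb3 (0.730) and Cpeb2 (0.723). In the other direction, Edc3 (-0.854) and Patl2 (-0.547) were lower in library 2. Log2 gaps beyond 0.5 were found for 11 members in the Mll2 KO pair, or 22.0% against 27.1% of all tested genes, and for 3 in the DKO-labelled pair, or 6.0% against 18.2%. In Mll2 WT 1 member, or 2.0%, and in the H2A.Z control none had such a gap, against 16.2% and 16.7% of all tested genes.

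The promoters of the members held more CG dinucleotides than those of tested genes at large. Of the 51 members 42 matched a RefSeq promoter of 300 bases, from 250 before to 50 after the start. The ratio of observed to expected CG had a median of 0.84 in these 42 and 0.70 in the 12440 tested genes with a promoter, and it was above 0.6 in 34 of 42, or 81.0%, against 59.8%. Among the members it was 0.96 at the median in the 16 that were higher in the DKO-labelled libraries, 0.84 in the 20 not called and 0.52 in the 5 that were lower. Over all tested genes the same medians were 0.74, 0.70 and 0.68. For Mll2 KO the median was 0.90 in the 4 members that were higher, 0.84 in the 33 not called and 0.71 in the 4 that were lower. Over all tested genes those medians were 0.74, 0.70 and 0.68 as well. Across 41 members with both values the log2 fold change in the DKO-labelled libraries had a Pearson correlation of 0.332 and a Spearman correlation of 0.358 with this ratio, and over all 12440 genes -0.00714 and 0.0103. In Mll2 KO the members' correlations were 0.26 and 0.0946, and those over all 12440 genes -0.00682 and 0.0315. These correlations are across genes of the same libraries, which are not independent replicates. Btg4, Cnot8, Pabpn1l and Zar1l had the lowest ratios, at 0.091, 0.141, 0.20 and 0.207.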

How the data were processed

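The deposited file is a table of raw counts per gene symbol, which the authors made from polyadenylated RNA by SMART-Seq v4 amplification and Nextera XT libraries, per the labels' protocols. The submitters' processing notes name Trim Galore 0.6.4, STAR 2.7.3, RSEM 1.3.1 and the mm10 build, without roles or annotation. Rounding of the counts and use of strand are not stated in the sources used here.

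From the deposited counts 16847 of 35976 symbols passed filterByExpr (minimum count 10), and 8787 were 0 in every library. One edgeR 4.0.16 quasi-likelihood fit (R 4.3.3, TMM scaling, 8 libraries in 4 groups, 4 residual degrees of freedom) gave each mutant against its own control and the difference between the effects, as the effect in the DKO-labelled libraries minus that in Mll2 KO. Values after ± are standard errors of the log2 fold change, and p-values were adjusted by Benjamini-Hochberg over all tested genes with a threshold of 0.05. CPM use TMM-scaled totals. On simulated counts at these depths 34.3%, 83.6% and 98.5% of genes changed 1.5-, 2- and 4-fold were recovered in the H2A.Z comparison, 40.3%, 83.6% and 98.5% in the Mll2 comparison, and 11.9%, 53.7% and 93.9% in the difference. Only 67, 67 and 66 genes were changed at these folds in each run, none of them with low counts. In the real libraries 30.9% and 30.6% of tested genes were called, so these rates need not hold there.

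Alternatives were relative log expression scaling, library size alone, no filter, DESeq2 1.42.0, each line alone, a replicate block and each library left out. Members and lists were chosen with earlier results of these data known. Every library's value is given for members with a known need in oocytes, up to 6 called members of largest change per comparison and direction, and up to 8 of largest difference between lines. Up to 4 other pathway genes of smallest p are named per comparison and direction. Gene positions are RefSeq's on GRCm38.p6, and transcript lengths, exon overlaps and similar transcripts (BLAST 2.17.0) come from GENCODE M21. A planned comparison of protein sequences between paralogs was not run.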

Additional observations from a re-analysis of the deposited data

Results flagged for a closer look

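For 14 members the effect in the DKO-labelled libraries differed from the effect in Mll2 KO by a test of the difference itself, an interaction term in the edgeR fit with an adjusted p under 0.05. The values below are that difference on the log2 scale. The mRNA of 3 members was lower in the DKO-labelled libraries relative to Mll2 KO, with differences of -1.37 for Pabpc1, -1.35 for Pabpn1l and -1.11 for Tob1. Pabpn1l fell in the DKO-labelled libraries, and Pabpc1 and Tob1 rose in Mll2 KO.

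The difference was positive for 11 members. Cnot7 (0.779), Xrn1 (0.738), Eif4enif1 (0.703), Cnot1 (0.682) and Btg4 (0.625) fell in Mll2 KO. Pum2 (0.650), Btg2 (0.654), Pan3 (0.586), Lsm14a (0.536) and Ythdf3 (0.461) rose in the DKO-labelled libraries, and Btg2 rose in Mll2 KO as well. Igf2bp2 (0.472) was called in neither line.

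The difference of Cnot7, Pabpc1, Pabpn1l and Tob1 held without each library in turn. It was lost for Eif4enif1 without Mll2 WT 2 or H2A.Z control 2 (adjusted p from 0.0569 to 0.0956), for Cnot1 without Mll2 WT 2 or H2A.Z control 2 (adjusted p from 0.0856 to 0.123) and for Xrn1 without H2A.Z control 2, DKO 1 or Mll2 WT 2 (adjusted p from 0.077 to 0.146). For Lsm14a, Btg2, Pan3, Pum2 and Igf2bp2 it was lost without any single library other than Mll2 KO 2, with adjusted p from 0.067 to 0.223 for Lsm14a, 0.0527 to 0.171 for Btg2, 0.0556 to 0.264 for Pan3, 0.0518 to 0.178 for Pum2 and 0.0758 to 0.25 for Igf2bp2. For Ythdf3 it was lost without H2A.Z control 2, DKO 1, DKO 2, Mll2 WT 1, Mll2 WT 2 or Mll2 KO 1 (adjusted p from 0.108 to 0.23). Of the 11 positive differences, Cnot7 alone passed with library size alone as scaling.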

How the results depend on the processing

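Of the single-member values under the alternatives, 177 lost their call, 78 gained one and 3 changed sign with a call. The sign changes were Dcp1a in Mll2 KO at -0.29 (adjusted p = 0.0164) and the difference of Lsm14b at 0.40 (adjusted p = 0.0112), both without Mll2 KO 2, and the difference of Eif4e1b at -0.48 (adjusted p = 0.00651) without Mll2 KO 1. Leaving out the other library of that pair gave 0.31, -0.58 and 0.44, in the same order. With library size alone, 10 members were higher in the DKO-labelled libraries, 9 higher in Mll2 KO, and the difference was higher for 1 and lower for 6, while 39 other pathway genes were higher and 12 lower in Mll2 KO. With relative log expression scaling and with DESeq2 the difference was higher for 6 members each. With no filter 8 members were higher in Mll2 KO. With each line alone 11 members and 13 other pathway genes were lower in the DKO-labelled libraries, and 16 other pathway genes higher in Mll2 KO. Over all genes that setting gave 3292 higher and 3485 lower in the DKO-labelled libraries, against 3269 and 1929 in the main fit. For Mll2 KO it gave 1636 higher and 1830 lower, against 2428 and 2730. The deviations of same-numbered libraries had correlations of only 0.0395 and -0.0221 in the 2 lines, so numbers were not used as pairs. The replicate block gave 18 members higher and 4 lower in the DKO-labelled libraries, 6 and 7 in Mll2 KO, 10 and 3 for the difference, and 5 called the same way in both lines, losing Cnot2 (0.0514) and Cnot8 (0.0742) in the first comparison and Btg4 (0.0598) in the difference, and gaining Eif4e1b as higher in both lines (0.0104 and 0.0273). Leaving out each library gave 6 to 19 members higher and 1 to 10 lower in the DKO-labelled libraries, with 15 to 39 and 2 to 13 other pathway genes. In Mll2 KO it gave 5 to 19 members higher and 4 to 12 lower, with 9 to 43 and 12 to 28 other pathway genes. The difference was higher for 1 to 22 members and lower for 3 to 9, and 3 to 16 members changed the same way in both lines. Over all genes the same step gave 1496 to 3188 higher and 1115 to 3381 lower in the DKO-labelled libraries, and 990 to 3351 and 1691 to 3468 in Mll2 KO. The cause of these shifts was not tested. With 2 libraries a group, 1.5-fold changes were mostly missed on simulated counts in which few genes changed, a rate that need not hold for the real libraries. Edc3, Dcp1b, Cpeb2 and Zfp36l2 are limited by few counts.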
